A study of Homo sapiens with 9 samples.

Results

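Interleukin-1 (IL-1) and interleukin-6 (IL-6) family cytokines and receptors were followed in MDA-MB-231 cells, an established human triple-negative breast cancer line, with and without depletion of the aryl hydrocarbon receptor (AhR, gene AHR). The members were 10 genes of 60649 in the count table, found by their gene symbols: the IL-1 family ligands IL1A, IL1B and IL18, the IL-6 family ligands IL6, IL11, LIF and CLCF1, and the receptor chains IL1R1, IL6ST and OSMR. The study asked how AhR bears on cytokine expression in such tumors, and RNA was sequenced from 9 libraries in 3 groups of 3 replicates. Libraries labelled PLKO-GFP carried the control vector, and those labelled shAHR#2 or shAHR#3 carried a short hairpin RNA against AHR. All 3 groups were transduced with lentivirus, selected with puromycin and grown in the same serum-containing medium under the treatment label "proliferation", so each library was a pool of surviving cells and no group was untransduced. The study's methods number the hairpins differently from the labels, and which hairpin is which could not be settled, so the labels' names are used.

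Both families carry inflammatory signals. IL-1α and IL-1β bind IL1R1, which recruits the accessory chain IL1RAP and signals through MYD88 and IRAK kinases to NF-kB, and IL-18 is made as a precursor that caspase-1 processes. IL-6, IL-11, LIF and CLCF1 all signal through gp130, the product of IL6ST, paired with a second chain such as IL6R, IL11RA or LIFR, and the OSMR chain pairs with gp130 to bind oncostatin M. Their main route runs through JAK kinases and STAT3, with SOCS3 as the feedback inhibitor, and tumor cells of the breast can both make and receive these cytokines. AhR is a ligand-activated transcription factor that binds a short element in DNA, the xenobiotic response element (XRE).

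AHR itself was at 114, 118 and 121 CPM (counts scaled to library size with the trimmed mean of M-values) in the PLKO-GFP libraries, 42.5, 40.4 and 41.9 with shAHR#2, and 46.3, 52.1 and 44.5 with shAHR#3. The hairpin libraries lay below every control library. AHR fell by 1.50 on the log2 scale with shAHR#2 (adjusted p = 1.05e-25), and by 1.31 under shAHR#3 (adjusted p = 4.95e-24). Every adjusted p here comes from edgeR's quasi-likelihood test fitted to all 14274 genes that passed the filter on low counts, with Benjamini-Hochberg adjustment over all of them and a threshold of 0.05. Total counts per library ranged from 15991396 to 20374460. The labels do not say whether replicates were separate cultures, so the p-values measure the spread between these libraries, which may be technical. Epithelial keratins and adhesion genes summed to between 896 and 1306 CPM across the libraries, CDH1 averaged 0.909 CPM in the controls, and the mesenchymal genes VIM, CD44, AXL and FN1 summed to at least 5445 CPM. PGR and the T cell gene CD3E had at most 3 counts in any library. The 6 leukocyte markers together reached at most 7.51 CPM. The 2 endothelial markers, PECAM1 and CDH5, summed to between 2.15 and 2.71 CPM in the controls and between 10.1 and 13.1 in the hairpin libraries, and the 4 fibroblast markers to between 28.8 and 32.4 with shAHR#3 and at most 16.2 elsewhere. Their part in the results was not tested. In bulk RNA, fewer cells making a transcript and less of it per cell cannot be told apart.

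The hairpins did not give the same cytokine pattern. With shAHR#2 IL1A, IL1B, LIF and CLCF1 rose, and IL11, OSMR and IL1R1 fell. With shAHR#3 IL18, IL6 and CLCF1 rose, and IL11 and OSMR fell. All 10 members passed the filter on low counts. With shAHR#2, 7 of the 10 were called at adjusted p under 0.05, 4 of them rises (background 32.6% of all genes tested) and 3 of them falls (background 33.2%), while 65.8% of all genes were called in either direction. With shAHR#3, 5 of the 10 were called, 3 of them rises (background 26.9%) and 2 of them falls (background 27.5%), while 54.4% of all genes were called in either direction. When the hairpins were averaged against PLKO-GFP, 9 of the 10 were called, with a background of 64.3%. The shares for the single hairpins are near the background, and the comparisons share their PLKO-GFP libraries. IL1A passed the filter only through the shAHR#2 libraries, where it was high, so the filter itself bears on its place in these counts. The direct comparison of shAHR#3 with shAHR#2 called 9 of the 10, 5 higher with shAHR#3 (background 21.9%) and 4 lower (background 20.4%), while 42.3% of all genes were called in either direction. The median log2 fold change of the members was 0.10 with shAHR#2 and 0.03 with shAHR#3, beside -0.003 and -6.88e-05 for all genes.

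**Figure D1:**
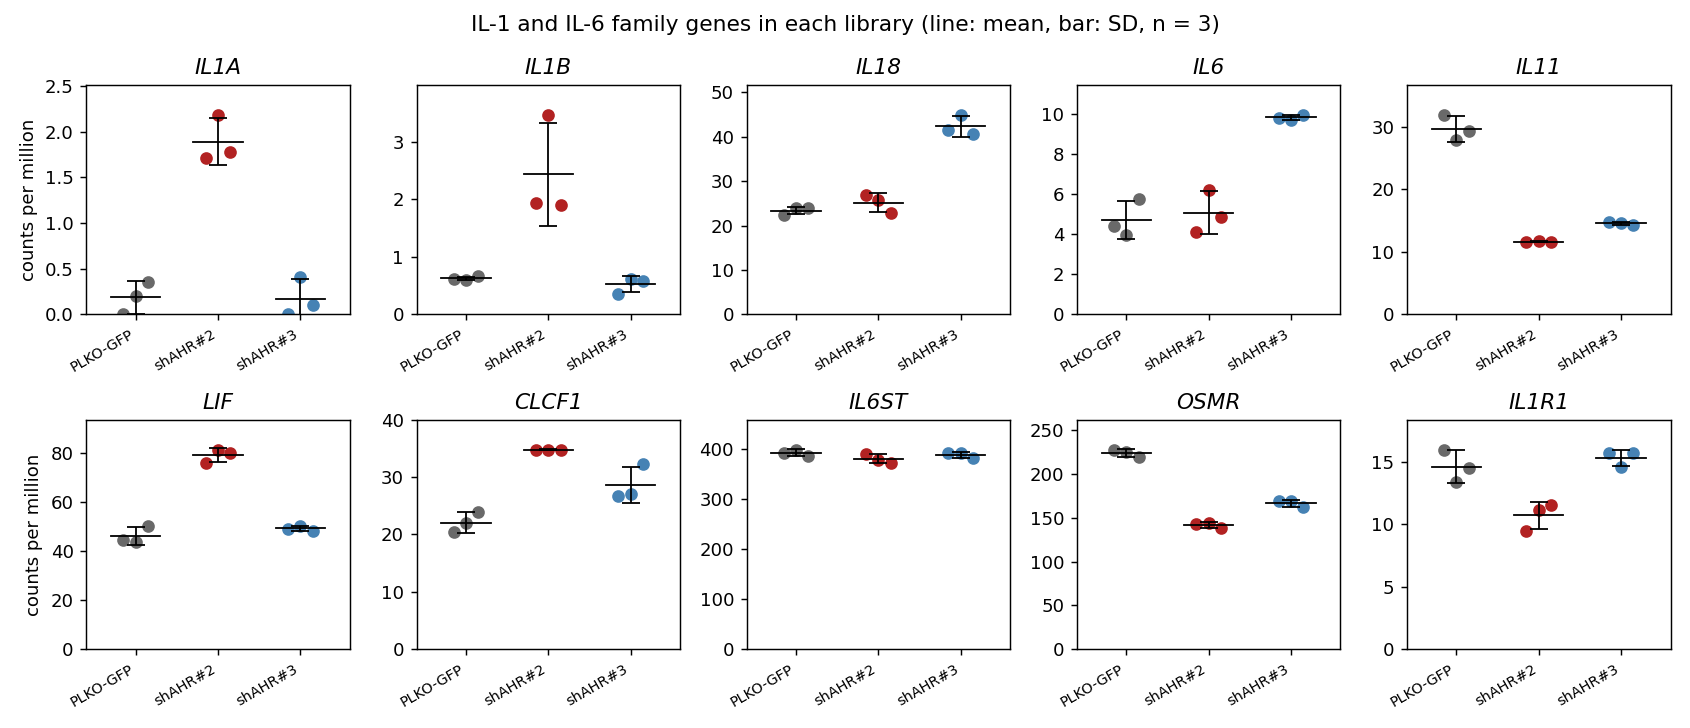
CPM of the 10 genes in each of the 9 libraries (points), by group on the horizontal axis, with the mean and SD of 3 libraries and axes that start at 0. IL1A, IL1B and LIF stand apart in shAHR#2, IL18 and IL6 in shAHR#3, IL11 and OSMR are lower in both hairpin groups, and IL6ST lies between 372 and 399 CPM throughout.

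**Figure D2:**
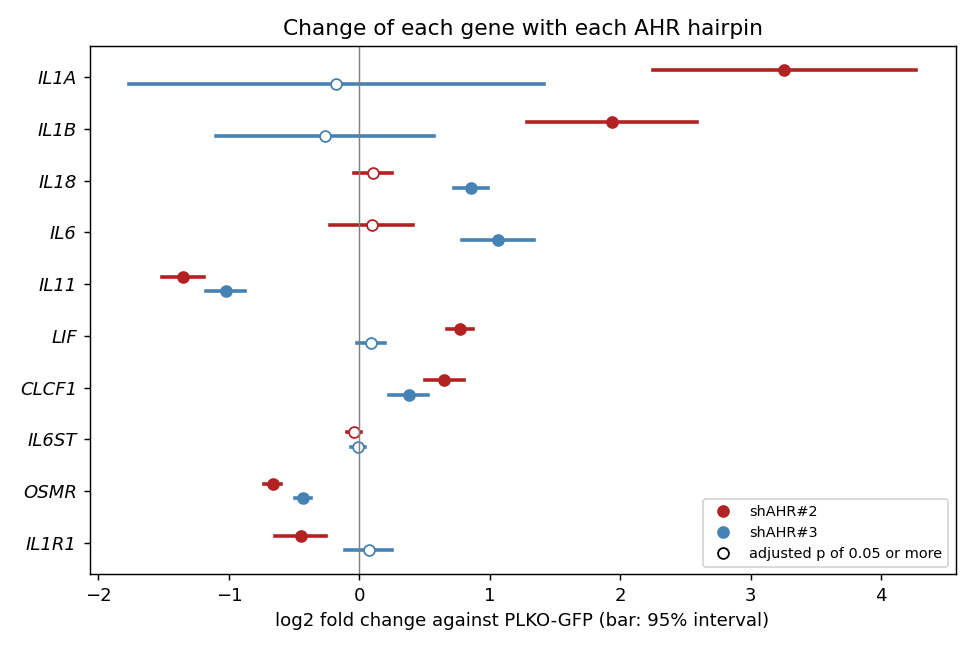
Log2 fold change of each gene against PLKO-GFP with its 95% confidence interval, for shAHR#2 and shAHR#3. Filled points passed the adjusted threshold of 0.05, and the widest interval is that of IL1A with shAHR#3, from -1.77 to 1.42.

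The levels of the members spanned a wide range in control cells. To compare genes, CPM was divided by the merged exon length in kilobases (RPKM). IL6ST was the most abundant, at 32.5 ± 0.567 RPKM (SD, n = 3), followed by OSMR at 31.3 ± 0.608, and their libraries ranged from 31.9 to 33.1 and from 30.6 to 31.8. CLCF1 at 12.0 ± 0.974, LIF at 11.9 ± 0.930 and IL11 at 11.1 ± 0.766 came next and did not differ beyond their spread. IL18 followed at 8.97 ± 0.320 and IL1R1 at 2.05 ± 0.183. IL6 was lower still, at 1.09 ± 0.220 RPKM. IL1B at 0.208 ± 0.00992 and IL1A at 0.0916 ± 0.0881 were the lowest. IL6ST and OSMR were thus above every ligand among the members, and IL1R1 was above both IL-1 ligands that bind it, on the scale of level per kilobase of merged exons. Merged exons join all annotated transcripts of a gene, so the order depends on that length, which the SDs do not cover.

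**Figure D3:**
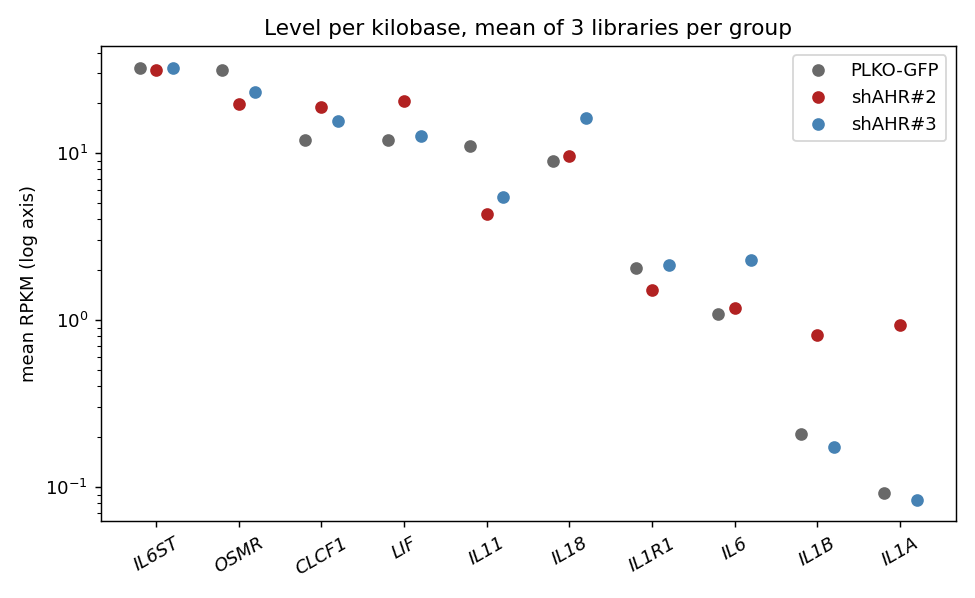
Mean level of each gene in RPKM on a log axis, for each group of 3 libraries, in the order of the PLKO-GFP means. The order runs from IL6ST at 32.5 to IL1A at 0.0916 RPKM in the controls.

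IL1A and IL1B, which encode the IL-1 receptor agonists IL-1α and IL-1β, rose with shAHR#2 alone in these tests. IL1A (ENSG00000115008.6, chr2:112773925-112784493 of GRCh38, minus strand) had 0, 4 and 7 counts in the PLKO-GFP libraries, 32, 34 and 28 with shAHR#2, and 0, 8 and 2 with shAHR#3. Every shAHR#2 library was above all 6 others, and the PLKO-GFP and shAHR#3 libraries overlapped. As levels, these counts were 0, 0.200 and 0.354 CPM, then 1.72, 2.18 and 1.77 CPM, then 0, 0.409 and 0.0976 CPM, and a count of 0 allows up to 3 counts, which is 0.169 CPM in PLKO-GFP replicate 1 and 0.154 CPM in shAHR#3 replicate 1. The fitted log2 fold change was 3.26 with shAHR#2 (standard error 0.50, 95% interval from 2.25 to 4.27, adjusted p = 4.56e-07). With shAHR#3 it was -0.18, with an interval from -1.77 to 1.42 (adjusted p = 0.867), so neither a rise nor a fall of more than 2-fold was excluded at this depth. Such intervals and floors cover the spread between these libraries or counting error only.

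IL1B (ENSG00000125538.12, chr2:112829751-112836816, minus strand) lies close to IL1A on the same strand. It had 11, 12 and 13 counts with PLKO-GFP, 36, 54 and 30 with shAHR#2, and 7, 12 and 12 with shAHR#3. The lowest shAHR#2 library again had more counts than any other library, and shAHR#2 replicate 2 was the highest. The levels were 0.621, 0.599 and 0.658 CPM in the controls, 1.93, 3.47 and 1.90 CPM with shAHR#2, and 0.360, 0.614 and 0.586 CPM with shAHR#3. Its log2 fold change was 1.93 with shAHR#2 (standard error 0.32, adjusted p = 2.02e-06) and -0.26 with shAHR#3, with an interval from -1.10 to 0.57 (adjusted p = 0.616). Between the hairpins, shAHR#3 was lower than shAHR#2 by a log2 difference of -3.43 for IL1A (adjusted p = 5.66e-07) and -2.20 for IL1B (adjusted p = 7.92e-07).

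The promoters of these neighbours are shown because their transcripts rose in the same libraries. Each run holds the 250 bases before the RefSeq transcript start on GRCh38.p14, 5′ to 3′ on the minus strand. In IL1A (chr2:112784494-112784743) the capitals mark an XRE core (GCGTG, here CACGC, its reverse complement, at -50 to -46) and an AP-1 motif (TGANTCA) at -12 to -6. In IL1B (chr2:112836780-112837029) they mark a STAT motif (TTCNNNGAA) at -180 to -172.
IL1A: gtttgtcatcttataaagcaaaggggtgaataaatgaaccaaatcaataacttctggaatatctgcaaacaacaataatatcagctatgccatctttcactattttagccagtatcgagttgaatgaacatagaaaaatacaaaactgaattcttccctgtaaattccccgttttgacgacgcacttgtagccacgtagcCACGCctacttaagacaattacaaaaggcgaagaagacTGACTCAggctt
IL1B: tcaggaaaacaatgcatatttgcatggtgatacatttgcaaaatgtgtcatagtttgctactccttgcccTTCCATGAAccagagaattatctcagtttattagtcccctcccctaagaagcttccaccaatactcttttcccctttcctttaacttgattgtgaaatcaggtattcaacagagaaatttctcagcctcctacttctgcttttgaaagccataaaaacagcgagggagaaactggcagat
Among 35116 RefSeq promoters of the same length, searched on both strands, 32.2% held the XRE core, 6.57% the AP-1 motif and 6.57% the STAT motif. The AP-1 and STAT patterns read alike on both strands, and no motif marked here overlapped another. A match is a run of letters and says nothing of binding.

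IL18 (ENSG00000150782.12, chr11:112143253-112164096, minus strand), the gene of the caspase-1 substrate IL-18, rose with the other hairpin. It was at 22.4, 23.9 and 23.9 CPM in the controls, 26.9, 25.8 and 22.8 with shAHR#2, and 41.5, 44.9 and 40.6 with shAHR#3. The shAHR#3 libraries were above all others, and the shAHR#2 libraries overlapped the controls. IL18 rose by 0.85 on the log2 scale with shAHR#3 (standard error 0.07, adjusted p = 6.06e-14), which is 1.81-fold. With shAHR#2 it was 0.11, with an interval from -0.04 to 0.25 (adjusted p = 0.188). Without shAHR#2 replicate 3, the lowest of its group, that rise passed the threshold at 0.18 (adjusted p = 0.0426).

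IL6 (ENSG00000136244.12, chr7:22725884-22732002, plus strand) also rose with shAHR#3. Its levels were 4.40, 3.95 and 5.77 CPM with PLKO-GFP, 4.13, 6.23 and 4.87 with shAHR#2, and 9.82, 9.72 and 9.96 with shAHR#3. The 3 shAHR#3 libraries were nearly equal and well above the other 6, which overlapped one another. IL6 rose by 1.06 on the log2 scale with shAHR#3 (standard error 0.14, adjusted p = 2.04e-08), or 2.09-fold. With shAHR#2 it was 0.09, with an interval from -0.22 to 0.41 (adjusted p = 0.614), and its sign turned without PLKO-GFP replicate 2 (-0.0239) or without shAHR#2 replicate 2 (-0.0689). The antisense gene IL6-AS1 shares 428 bases with the exons of IL6, 9.91% of them, and it was counted at a mean of 0.472 CPM with log2 fold changes of 0.26 (adjusted p = 0.693) and 0.86 (adjusted p = 0.136). Whether the counting used strand is not given in the sources used here, so reads in the shared bases cannot be told apart.

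IL11 was the ligand gene that fell, and it fell with both hairpins. IL11 (ENSG00000095752.7, chr19:55364382-55370463, minus strand) was at 31.9, 27.9 and 29.3 CPM in the controls, 11.6, 11.7 and 11.6 with shAHR#2, and 14.8, 14.6 and 14.3 with shAHR#3. The groups did not overlap, and the shAHR#2 libraries were the lowest. Against the controls IL11 changed by -1.35 with shAHR#2 (standard error 0.08, adjusted p = 1.64e-17) and -1.02 with shAHR#3 (standard error 0.07, adjusted p = 1.55e-14). The hairpins differed by 0.33 (adjusted p = 0.00238). AHR was also higher with shAHR#3 than with shAHR#2, by 0.19 (adjusted p = 0.00283), a difference that missed the threshold without shAHR#3 replicate 2 (adjusted p = 0.0604). Whether the AHR difference bears on IL11 was not tested.

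The promoters of IL6 and IL11 are shown as a pair of gp130 ligand genes with unlike changes. In IL6 (chr7:22726950-22727199, plus strand) the capitals mark an NF-kB motif at -73 to -64. In IL11 (chr19:55370464-55370713, minus strand) they mark the XRE core GCGTG at -152 to -148 and an AP-1 motif at -96 to -90.
IL6: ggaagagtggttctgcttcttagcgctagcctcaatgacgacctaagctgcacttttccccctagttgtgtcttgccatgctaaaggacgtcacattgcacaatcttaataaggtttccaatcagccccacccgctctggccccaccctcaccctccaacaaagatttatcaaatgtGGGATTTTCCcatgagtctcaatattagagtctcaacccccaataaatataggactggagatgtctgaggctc
IL11: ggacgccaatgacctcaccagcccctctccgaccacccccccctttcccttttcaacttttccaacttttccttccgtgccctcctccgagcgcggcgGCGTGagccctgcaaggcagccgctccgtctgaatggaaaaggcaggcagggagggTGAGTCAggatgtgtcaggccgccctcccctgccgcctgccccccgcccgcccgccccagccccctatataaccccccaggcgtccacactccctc
The NF-kB consensus was present in 9.96% of the 35116 promoters. Promoter sequences were matched for 7 of the 10 members. IL1A and IL11 were the members with an XRE core in this window, and IL6 and IL6ST those with an NF-kB motif.

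LIF and CLCF1, whose products signal through gp130 and LIFR, were higher with shAHR#2. LIF (ENSG00000128342.5, chr22:30240453-30246759, minus strand) was at 44.4, 43.8 and 50.3 CPM with PLKO-GFP, 75.8, 81.4 and 80.0 with shAHR#2, and 49.1, 50.2 and 48.3 with shAHR#3. The shAHR#2 libraries stood above the rest, while the shAHR#3 libraries lay inside the range of the controls. LIF rose by 0.77 on the log2 scale with shAHR#2 (standard error 0.05, adjusted p = 2.01e-16), or 1.71-fold. With shAHR#3 it was 0.09, with an interval from -0.01 to 0.19 (adjusted p = 0.142), and without PLKO-GFP replicate 3, the highest control, it was 0.16 (adjusted p = 0.0156).

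CLCF1 (ENSG00000175505.11, chr11:67364168-67374177, minus strand), a gene for a neurotrophic cytokine, was the ligand gene that rose with both hairpins. It was at 20.4, 21.9 and 24.0 CPM in the controls, 34.8, 34.7 and 34.8 with shAHR#2, and 26.7, 27.1 and 32.3 with shAHR#3. The 3 groups did not overlap, and shAHR#3 replicate 3 came nearest to the shAHR#2 libraries. CLCF1 changed by 0.65 on the log2 scale with shAHR#2 (standard error 0.07, adjusted p = 6.80e-10) and 0.38 with shAHR#3 (standard error 0.07, adjusted p = 3.99e-05). The difference of -0.27 between the hairpins passed the threshold (adjusted p = 0.00155).

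Among the receptor chains, IL6ST held its level. IL6ST (ENSG00000134352.20, chr5:55935095-55995022, minus strand), the gene of gp130, was at 393, 399 and 385 CPM with PLKO-GFP, 390, 379 and 372 with shAHR#2, and 392, 392 and 382 with shAHR#3. The groups overlapped. The log2 fold change was -0.04 with shAHR#2, with an interval from -0.10 to 0.01 (adjusted p = 0.147), and -0.01 with shAHR#3, with an interval from -0.07 to 0.04 (adjusted p = 0.695). With library totals in place of the trimmed mean of M-values, which moves the median of all genes by less than 0.1, IL6ST was called lower with shAHR#2, at -0.11 (adjusted p = 4.99e-04).

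OSMR (ENSG00000145623.13, chr5:38845858-38945596, plus strand), the oncostatin M receptor chain, fell with both hairpins. It was at 228, 226 and 220 CPM in the controls, 143, 144 and 138 with shAHR#2, and 169, 169 and 162 with shAHR#3. The 3 groups did not overlap. On the log2 scale OSMR changed by -0.66 with shAHR#2 (standard error 0.03, adjusted p = 2.08e-20) and -0.43 with shAHR#3 (standard error 0.03, adjusted p = 8.22e-15), and the hairpins differed by 0.24 (adjusted p = 1.25e-07). Its exons share 229 bases, 3.19%, with RICTOR on the other strand, for which the log2 fold changes were -0.14 (adjusted p = 0.00408) and -0.02 (adjusted p = 0.642).

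LIFR, the chain that LIF and CLCF1 use beside gp130, fell as well. It was at 120, 125 and 122 CPM in the controls, 62.5, 59.1 and 61.1 with shAHR#2, and 101, 107 and 102 with shAHR#3. The shAHR#2 libraries were the lowest, and no group overlapped another. The change was -1.002 on the log2 scale with shAHR#2 (adjusted p = 5.02e-23), while for shAHR#3 it was -0.24 (adjusted p = 4.62e-07). LIF transcripts thus rose with shAHR#2 while those of its receptor chain fell.

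IL6ST, OSMR and LIFR lie on chromosome 5, as does IL31RA, and genes of that chromosome were mostly lower in the hairpin libraries. Over the 656 genes of chromosome 5 that were tested, the median log2 fold change was -0.48 with shAHR#2 and -0.26 with shAHR#3, and 84.1% and 79.6% of them were below 0. Of these genes, 32.3% had a lower value than OSMR with shAHR#2 and 25.6% with shAHR#3. For IL6ST the shares were 82.6% and 77.9%, so IL6ST was above most of its chromosome. Between the hairpins the genes of chromosome 5 had a median of 0.21, higher with shAHR#3, and 53.5% of them had a lower value than OSMR. The part of these shifts in the changes of OSMR and LIFR was not tested.

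IL1R1 (ENSG00000115594.12, chr2:102064544-102179874, plus strand), the signalling receptor for both IL-1 ligands, was at 16.0, 13.4 and 14.5 CPM with PLKO-GFP, 9.49, 11.1 and 11.6 with shAHR#2, and 15.7, 14.6 and 15.7 with shAHR#3. The shAHR#2 libraries lay below all others, and the shAHR#3 libraries fell within the control range. IL1R1 changed by -0.45 on the log2 scale with shAHR#2 (standard error 0.10, adjusted p = 1.12e-04) and 0.07 with shAHR#3, with an interval from -0.11 to 0.25 (adjusted p = 0.524). Between the hairpins the difference was 0.52 (adjusted p = 2.49e-05). In the shAHR#2 libraries, then, the transcripts of both IL-1 ligands were higher and those of their receptor lower than in the controls.

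The other IL-1 family ligands and receptors were mostly not detected. Of 17 listed, 4 passed the filter. IL1RAP, the accessory chain, was at 25.5 ± 1.25 CPM in the controls, 16.7 ± 0.995 with shAHR#2 and 22.0 ± 0.843 with shAHR#3 (SD, n = 3). It fell by 0.62 on the log2 scale with shAHR#2 (adjusted p = 5.23e-09) and by 0.21 with shAHR#3 (adjusted p = 0.0116). The latter was lost without PLKO-GFP replicate 1 (adjusted p = 0.0738). As log2 fold changes, IL1RAPL1, a neuronal family member, was at 0.27 and -0.33 with shAHR#2 and shAHR#3 (adjusted p = 0.0165 and 0.00553). IL18BP, which neutralizes IL-18, was at -0.03 (adjusted p = 0.874) and 0.42 (adjusted p = 0.0285). The inhibitory receptor SIGIRR was at 0.29 (adjusted p = 0.0704) and 0.20 (adjusted p = 0.219). The list's median was 0.12 with shAHR#2 and -0.004 with shAHR#3. The call of IL1RAPL1 with shAHR#2 was lost without PLKO-GFP replicate 3 (adjusted p = 0.0687), without shAHR#2 replicate 2 (0.114) and with library totals (0.0722), and that with shAHR#3 without shAHR#3 replicate 2 (0.0542). The call of IL18BP was lost in DESeq2 (adjusted p = 0.0704) and without either of PLKO-GFP replicates 1 and 3 or shAHR#3 replicates 1 and 2 (0.0520 to 0.218). The IL-1 receptor antagonist gene IL1RN, the decoy receptor IL1R2 and the IL-18 receptor gene IL18R1 had at most 3 counts in any library. IL33, its receptor IL1RL1 and the second IL-18 receptor chain IL18RAP had 0 counts in all 9 libraries, which allows up to 3 counts in each.

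Of 12 other IL-6 family ligands and receptors, 8 passed the filter. There were 3 rises and 1 fall with shAHR#2 (median 0.09), and 2 rises and 2 falls with shAHR#3 (median -0.10), beside backgrounds of 32.6% and 33.2%, then 26.9% and 27.5%. IL27RA, a receptor chain that pairs with gp130, rose by 0.81 (adjusted p = 1.83e-07) and 0.66 (adjusted p = 9.35e-06) on the log2 scale. IL31RA, the partner of OSMR for IL-31, was higher with shAHR#2 at 0.27 (adjusted p = 7.89e-04) but lower, at -0.52, with shAHR#3 (adjusted p = 1.29e-07). The ligand-binding chains IL6R, at 0.14 (adjusted p = 0.618) and 0.39 (adjusted p = 0.140), and IL11RA, at -0.15 (adjusted p = 0.553) and -0.06 (adjusted p = 0.831), did not pass the test. The ligands CNTF, at 0.03 and -0.14 (adjusted p = 0.904 and 0.565), and CTF1, at -0.27 and -0.54 (adjusted p = 0.317 and 0.0511), did not pass it either. OSM, the ligand of OSMR, had 0 counts in every library. The listed receptor chain CNTFR had at most 1 count in any library.

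The genes that process and release IL-1 were mixed. Of 16 listed, 13 were tested. There were 5 rises and 4 falls with shAHR#2 (median 0.17), and 4 rises and 3 falls with shAHR#3 (median 0.005). Both are near the background of 32.6% rises and 33.2% falls with shAHR#2 and 26.9% and 27.5% with shAHR#3. The pore-forming gasdermin gene GSDMD was at 0.29 and 0.31, NEK7, which licenses the NLRP3 inflammasome, at 0.17 and 0.20, and S100A13, a partner in IL-1α export, at 0.39 and 0.19, and all 3 passed the test with both hairpins. Without PLKO-GFP replicate 1, GSDMD missed the threshold with both (adjusted p = 0.185 and 0.137), as it did without shAHR#2 replicate 2 or shAHR#3 replicate 3 (0.0667 and 0.0757), and S100A13 missed it with shAHR#3 without PLKO-GFP replicate 3 (0.0615). GSDME, another gasdermin gene, fell by 0.57 and 0.79 (adjusted p = 4.42e-11 and 1.71e-14). CAPN2, a subunit of the protease that cleaves pro-IL-1α, fell by 0.17 (adjusted p = 1.26e-07) and 0.27 (adjusted p = 9.05e-12). NLRP3, named after its values were seen, was at 1.01 and 0.01 (adjusted p = 1.31e-06 and 0.983), and AIM2, named likewise, was at -0.94 (adjusted p = 7.85e-04) and -0.70 (adjusted p = 0.00822).

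All 21 genes of IL-1 receptor signal transduction were tested, and as many were higher as lower. With either hairpin there were 6 rises and 6 falls, and the median was 0.03 and 0.05. These counts are near the background, since 32.6% of all genes rose and 33.2% fell under shAHR#2, while 26.9% rose and 27.5% fell under shAHR#3. IRAK2, an IRAK family member of the receptor complex, is itself a target of NF-kB. It was at 18.3 ± 0.606 CPM in the controls, 53.5 ± 0.719 with shAHR#2 and 38.1 ± 0.559 with shAHR#3 (SD, n = 3). It rose by 1.54 (adjusted p = 3.44e-23) and 1.06 (adjusted p = 2.13e-17) on the log2 scale. IKBKB, a kinase of the IκB kinase complex, rose by 0.52 and 0.26, and UBE2N, the E2 enzyme for lysine-linked ubiquitin chains, by 0.18 and 0.11. TAB3, an adaptor of the kinase TAK1, fell by 0.52 (adjusted p = 3.25e-09) and 0.53 (adjusted p = 2.61e-09). PELI3, an E3 ligase for IRAK proteins, fell by 0.48 and 0.36, and CHUK, the other catalytic kinase of the IκB kinase complex, by 0.22 and 0.09. With shAHR#3 the call of PELI3 was lost without PLKO-GFP replicate 3 or shAHR#3 replicate 2 (adjusted p = 0.0969 and 0.0845), and that of CHUK in DESeq2 (0.0940) and without any 1 of the 6 libraries compared (0.0637 to 0.144). MYD88, the adaptor, was at 0.07 (adjusted p = 0.276) and 0.08 (adjusted p = 0.226).

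Of 18 listed genes of gp130 signal transduction, 16 were tested. There were 8 rises and 4 falls with shAHR#2 (median 0.08), and 9 rises and 3 falls with shAHR#3 (median 0.16), beside backgrounds of 32.6% and 33.2% for the former and 26.9% and 27.5% for the latter. With library totals the falls with shAHR#2 numbered 7. SOCS3, the feedback inhibitor of gp130, was at 45.6 ± 1.49 CPM in the controls, 74.9 ± 2.91 with shAHR#2 and 75.8 ± 3.52 with shAHR#3 (SD, n = 3). It rose by 0.71 (adjusted p = 4.95e-16) and 0.73 (adjusted p = 3.15e-16) on the log2 scale. JAK2 rose by 0.43 and 0.53 and PIAS3, an inhibitor of STAT3, by 0.44 and 0.59. PTPN2, a phosphatase for JAK and STAT proteins, fell by 0.18 and 0.38 (adjusted p = 0.0107 and 1.44e-06). The first of these was lost without PLKO-GFP replicate 1 or shAHR#2 replicate 1 (adjusted p = 0.0650 and 0.155). STAT3, named after its values were seen, was at 0.28 (adjusted p = 2.68e-10) and 0.36 (adjusted p = 5.53e-13). JAK1 was at 0.02 (adjusted p = 0.546) and 0.002 (adjusted p = 0.971).

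Of 30 listed target genes of gp130 and STAT3, 22 were tested. There were 13 rises and 6 falls with shAHR#2 (median 0.39), and 13 rises and 2 falls with shAHR#3 (median 0.31), where the median of all genes was -0.003 and -6.88e-05. Over all genes 32.6% rose and 33.2% fell with shAHR#2, so the falls in the list are near that background, and 26.9% rose and 27.5% fell with shAHR#3. ICAM1, an adhesion molecule for leukocytes, was at 44.9 ± 0.213 CPM in the controls, 127 ± 6.04 with shAHR#2 and 98.5 ± 2.08 with shAHR#3 (SD, n = 3). It rose by 1.50 (adjusted p = 1.26e-27) and 1.13 (adjusted p = 3.32e-23) on the log2 scale. TNFRSF1A, a receptor for tumor necrosis factor, rose by 1.21 and 1.05, and IL4R, the IL-4 receptor chain, by 0.72 and 0.83. BCL2L1, an inhibitor of apoptosis, fell by 0.45 (adjusted p = 6.96e-18) and 0.19 (adjusted p = 6.78e-08). The direct comparison of the hairpins called 10 of the 22 higher with shAHR#3 and 8 lower, beside 21.9% and 20.4% of all genes. Among the genes tested, STAT3, SOCS3, ICAM1, IRAK2, SAA1, SAA2 and ZC3H12A stand in more than 1 of the lists, so the list counts are not independent.

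Of 35 listed IL-1 target genes, 24 were tested, with 18 rises and 3 falls under shAHR#2 (median 0.71), where 32.6% of all genes rose and 33.2% fell. Under shAHR#3 there were 13 rises, 4 falls and 7 genes that did not pass the test (median 0.37), where 26.9% of all genes rose and 27.5% fell. Between the hairpins, 17 of the 24 were lower with shAHR#3 and 2 higher, with a median difference of -0.49, where 20.4% of all genes were lower and 21.9% higher. CXCL8, the gene of the neutrophil attractant IL-8, was at 9.39 ± 0.405 CPM in the controls, 48.6 ± 3.24 with shAHR#2 and 20.7 ± 1.01 with shAHR#3 (SD, n = 3). It rose by 2.37 (adjusted p = 1.32e-25) and 1.14 (adjusted p = 1.96e-14) on the log2 scale. CXCL1, a related chemokine, rose by 2.34 (adjusted p = 4.03e-19) and 1.49 (adjusted p = 2.46e-12). MMP1, interstitial collagenase, went against the list with both hairpins and fell by 3.58 (adjusted p = 1.41e-15) and 4.17 (adjusted p = 1.11e-16). The other falls with shAHR#3, named after their values were seen, were CSF3 at -3.99, TNFAIP3 at -0.49 and NFKB1 at -0.15. TNFAIP3 rose with shAHR#2, at 0.61, and CSF3 had at most 21 counts in any library. The acute-phase genes SAA1 and SAA2, near-identical paralogs named after their values were seen, were at -2.84 and -1.47 with shAHR#2 (adjusted p = 2.16e-08 and 1.84e-04), and at -0.06 and 0.36 with shAHR#3 (adjusted p = 0.858 and 0.224). Most of these genes also answer other signals to NF-kB.

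**Figure D4:**
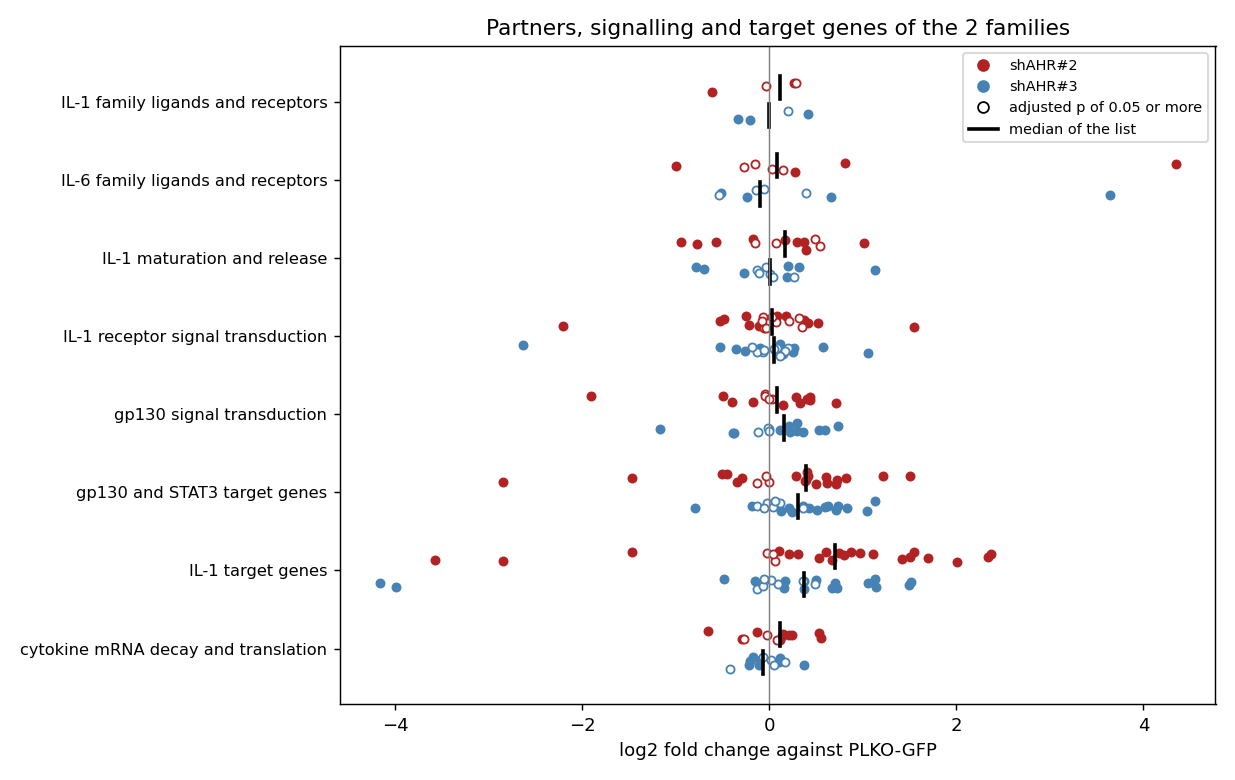
Log2 fold change against PLKO-GFP of each tested gene of 8 lists, for shAHR#2 and shAHR#3, with the median of each list as a black bar and open points for genes that did not pass the adjusted threshold. The medians lie furthest from 0 for IL-1 target genes, at 0.71 and 0.37, and for gp130 and STAT3 target genes, at 0.39 and 0.31.

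Cytokine transcripts are also set by proteins that act on their decay or translation, in either direction. All 13 listed genes of this kind were tested. There were 7 rises and 3 falls with shAHR#2 (median 0.11), and 3 rises and 5 falls with shAHR#3 (median -0.07), where all genes gave 32.6% and 33.2% with the first hairpin and 26.9% and 27.5% with the second. ZC3H12A, the nuclease Regnase-1 that cleaves IL6 transcripts, rose by 0.53 (adjusted p = 0.00253) and 0.37 (adjusted p = 0.0355). CNOT1, the scaffold of the deadenylase complex, rose by 0.25 and 0.10, and N4BP1, an RNA nuclease, by 0.15 and 0.11. With shAHR#3 the calls of ZC3H12A and N4BP1 were lost in DESeq2 (adjusted p = 0.0871 and 0.0859), with library totals (0.0523 and 0.125) and, for each, without 4 of the 6 libraries compared (0.0521 to 0.112). ZFP36L2, which binds AU-rich elements, fell by 0.65 (adjusted p = 4.35e-13) and 0.18 (adjusted p = 0.00332), and HNRNPD, the AU-rich element binding protein AUF1, fell by 0.29 (adjusted p = 2.40e-11) and 0.22 (adjusted p = 1.68e-08).

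The gene whose pattern over the 9 libraries was nearest to each member was found by the root mean square difference of log2 CPM after centring on the control mean. The nearest to IL6ST was KHDRBS1 at 0.0150, to OSMR ABL2 at 0.0339 and to LIF IGF2BP3 at 0.0489. For CLCF1 it was PDE4B at 0.0727, for IL1R1 USP21 at 0.0765 and for IL11 PGM2 at 0.0869. These 6 differed little from their member, on a scale where 1 is a 2-fold difference. The nearest to IL18 was MTCL1 at 0.112, to IL6 CMKLR1 at 0.168, to IL1B TMEM154 at 0.404 and to IL1A ENTPD3 at 0.898. Only tested genes with a mean log2 CPM of 1 or more were searched. IL1A had at most 8 counts in the PLKO-GFP and shAHR#3 libraries. Scatter at such counts enters its distance, so the value cannot say whether a gene follows IL1A. The points share libraries and depth, and the likeness is a description.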

How the data were processed

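RNA was sequenced from 9 libraries of MDA-MB-231 cells made with a stranded mRNA kit. The authors deposited whole-number read counts per gene, without normalization. The submitters' processing notes name FastQC, STAR, featureCounts of Subread and GRCh38.p13. Settings, annotation release and use of strand are not given in the sources used here.

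Counts were analysed with R 4.3.3, edgeR 4.0.16 and limma 3.58.1, and tables were made with Python 3.11.15 and pandas 2.3.3. Genes were kept by filterByExpr (minimum count 10, minimum total 15), which left 14274 of 60649. Libraries were scaled by TMM and tested with glmQLFit and glmQLFTest over all 9, with 1 mean per group and Benjamini-Hochberg adjustment. Chi-square per degree of freedom between replicates was 1.76 to 4.24, so none was taken as a repeat deposit. Replicates varied beyond counting error by 2.96% (common biological coefficient of variation). The methods were tested on simulated data. The study used DESeq2, which is an alternative here (version 1.42.0).

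Members and gene lists were chosen with earlier results of these data known. The lists were written from general knowledge and cover IL-1 and IL-6 family ligands and receptors, IL-1 maturation and release, IL-1 receptor and gp130 signal transduction, IL-1 and gp130/STAT3 target genes, and cytokine mRNA decay, beside cell type markers. Summed marker levels in CPM with PLKO-GFP, shAHR#2 and shAHR#3 were 896 to 946, 1044 to 1088 and 1216 to 1306 for epithelial markers, 5445 to 5517, 8277 to 8493 and 6849 to 6911 for mesenchymal markers, and 3.99 to 5.47, 5.76 to 7.51 and 6.65 to 6.74 for leukocyte markers. They were 2.15 to 2.71, 10.1 to 12.3 and 11.6 to 13.1 for endothelial markers, 13.3 to 16.2, 13.9 to 15.5 and 28.8 to 32.4 for fibroblast markers, and 60.1 to 64.1, 61.9 to 64.1 and 70.1 to 75.7 for hormone receptors and HER2. Their part in any result was not tested.

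Named genes were the members, AHR, their tested binding partners, up to 3 rises and 3 falls per other list called alike with both hairpins with a mean log2 CPM of 1 or more, and the gene with the nearest pattern to each member (pseudocount 0.1 CPM). Some genes that the rule names are not reported here. Exon lengths and positions came from GENCODE release 44, in which 60463 of 60605 identifiers were found, and promoters from RefSeq on GRCh38.p14. A floor of 3 counts was used for zeros. Alternatives were DESeq2, its size factors in edgeR, library totals, no filter, a mean of at least 50 counts, only the groups compared, a replicate block, each library left out, an adjusted p under 0.01 and a log2 fold change of 1 or more as a further condition. The same alternatives for the gene lists, thresholds aside, were added after seeing the data.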

Additional observations from a re-analysis of the deposited data

Results flagged for a closer look

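For 9 of the 10 members the effects of the 2 hairpins against the same controls differed by a direct test. Values are log2 differences of shAHR#3 against shAHR#2 in edgeR, adjusted over all genes tested by the method of Benjamini and Hochberg. Of all genes tested, 42.3% were called in this comparison, 21.9% higher with shAHR#3 and 20.4% lower. The hairpin group with the higher level was shAHR#2 for IL1A (-3.43, adjusted p = 5.66e-07), IL1B (-2.20, adjusted p = 7.92e-07), LIF (-0.68, adjusted p = 1.82e-14) and CLCF1 (-0.27, adjusted p = 0.00155). It was shAHR#3 for IL6 (0.97, adjusted p = 3.04e-07), IL18 (0.75, adjusted p = 5.17e-12), IL1R1 (0.52, adjusted p = 2.49e-05), IL11 (0.33, adjusted p = 0.00238) and OSMR (0.24, adjusted p = 1.25e-07). OSMR lies on chromosome 5, where the tested genes had a median difference of 0.21 and 53.5% had a lower value than OSMR. The part of that shift in the OSMR difference was not tested. For IL6ST the difference was 0.03, with an interval from -0.02 to 0.08 (adjusted p = 0.381). The hairpin groups also differed in AHR, by 0.19, and whether that difference bears on the members was not tested.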

How the results depend on the processing

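Of 729 fold changes of members and AHR under the alternatives, 699 kept their direction and their side of the threshold, 20 no longer passed it, 5 newly passed it and 5 changed sign. With a log2 fold change of 1 or more also required, which by construction calls fewer genes, the members called went from 7 to 3 with shAHR#2, from 5 to 2 with shAHR#3, from 9 to 2 between the hairpins and from 9 to 2 for the mean of both hairpins, and all genes called went from 9390 to 1691, 7771 to 961, 6031 to 530 and 9185 to 1177. The sign changes were those of uncalled values: IL6 with shAHR#2 ranged from -0.0689 to 0.27 and IL1A with shAHR#3 from -1.80 to 0.64 when 1 library was left out. The AHR difference between the hairpins ranged from 0.13 to 0.24 and missed the threshold without shAHR#3 replicate 2 (adjusted p = 0.0604). For the mean of both hairpins, the calls of IL1A, IL1B and IL1R1 were lost in several settings, with IL1A from 0.73 to 2.35, IL1B from 0.67 to 0.94 and IL1R1 from -0.25 to -0.12. IL1A and IL1B were not tested with the stricter filter (a mean of 50 counts or more). A fit on the compared groups alone could not be made for the mean of both hairpins. Same-numbered libraries correlated at 0.003 to 0.058 after centring on their group means, and 9 of 9 correlated best with their own number. A weak pairing by replicate number is therefore possible, and its source was not tested. With the replicate block 7, 5 and 9 members and 9406, 7844 and 6107 genes were called, and DESeq2 called 7, 5 and 9 members, the same genes in each comparison. Of 768 counts over the gene lists, 727 stayed within 1.5 times their value, and the cause of the other 41 was not tested. Depth limits IL1A and IL1B most, with at most 54 counts in any library.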
